A study of Mus musculus with 4 samples.

Results

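The Fc gamma receptors are the cell surface receptors through which macrophages recognise antibody of the IgG class. This account covers 5 genes chosen by symbol, namely the receptors Fcgr1, Fcgr2b, Fcgr3 and Fcgr4 and their shared signalling chain Fcer1g, out of 19938 genes measured by a probeset with a single gene symbol. The members were named by receptor family, and the rule itself uses no signal value beyond the choice of the brightest probeset of a gene. They were chosen with earlier results of these data known, so their counts and ranks below describe them and are not a test. All 5 were found, each by 1 probeset, and all lay above the floor of 2.52 on every array. The floor is the median signal of the single-symbol probesets, set so that a gene under it is not read as measured.

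The study profiled mouse bone marrow-derived macrophages on 4 whole-transcript arrays. Bone marrow was cultured for 7 days with 10% supernatant of L929 fibroblasts, which supplies the growth factor M-CSF. The adherent cells were replated and given either plain medium or IL-4, a type 2 cytokine, for 24 h, and RNA was taken from cells sorted for the macrophage surface protein that Adgre1 encodes. There were 4 groups of 1 array each: wild-type BALB/c cells in medium, wild-type BALB/c cells with IL-4, 4get/Stat6-/- cells in medium and 4get/Stat6-/- cells with IL-4. The dose of IL-4 is 10 µg/mL in the sample labels and 10 mg/mL in the text of the series, and which of the units was meant is not settled. Stat6 encodes the main transcription factor downstream of the IL-4 receptor, and 4get is a reporter allele of IL-4 transcription that the wild-type cells do not carry by their label. The labels give neither the age or number of the mice nor the background strain of the 4get/Stat6-/- line. A difference between the genotypes can therefore not be told apart from one of the reporter or of the strain.

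With 1 array a group, replicate spread is unknown for every difference, and no p-value, standard error or interval was computed. Values are log2 signals made by the authors with RMA, and differences are log2 differences between arrays, so that 1 is a 2-fold change. The words rose, fell and changed are kept for genes whose difference was at least 1 in size and whose higher array reached the floor. Levels are compared between arrays for the same gene and never between genes, since probesets differ in brightness. Stat6 itself had signals of 7.34 (medium) and 6.68 (IL-4) on the wild-type arrays and of 4.54 (medium) and 4.25 (IL-4) on the Stat6-/- arrays, so both Stat6-/- arrays lay below both wild-type arrays. Median signals over all probesets ran from 2.23 to 2.29 over the 4 arrays.

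Mouse macrophages use activating and inhibitory Fc gamma receptors side by side. The activating receptors Fcgr1 (CD64), Fcgr3 (CD16) and Fcgr4 (CD16-2) signal through a small partner, the FcR gamma chain encoded by Fcer1g. This chain carries an immunoreceptor tyrosine-based activation motif (ITAM), supports the surface expression of the receptors, and recruits the kinase Syk once antibody clusters them. Fcgr2b (CD32B) is the inhibitory receptor, whose tail carries an inhibitory motif (ITIM) that recruits the lipid phosphatase encoded by Inpp5d. The balance of both kinds sets the threshold for phagocytosis of antibody-coated particles and for cytokine release, and interferon gamma is a known inducer of Fcgr1 and Fcgr4.

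Fcgr2b, Fcgr4, Fcgr3 and Fcer1g lie on chromosome 1, and Fcgr1 on chromosome 3, in the RefSeq annotation of GRCm38.p6. The proximal promoters of the 3 receptor genes that passed the rule of size in at least 1 comparison are shown, because the results turn on these genes. Each window runs from 250 bases before to 50 after the annotated start, 5′ to 3′ along the gene. The sequences are from RefSeq and are those of the C57BL/6J reference, not of the mice used. Capitals mark matches to 5 motifs searched on both strands, chosen with the expression values known. These were the interferon-gamma activated site TTCNNNGAA, the wider STAT site that STAT6 is known to favour (TTC and GAA with 4 free bases between), the interferon response core (GAAA, 2 free bases, GAAA), the PU.1 core GAGGAA and the PU.1-IRF composite (GGAA, 2 free bases, GAAA).
Fcgr1 (chr3:96293920-96294219, minus strand): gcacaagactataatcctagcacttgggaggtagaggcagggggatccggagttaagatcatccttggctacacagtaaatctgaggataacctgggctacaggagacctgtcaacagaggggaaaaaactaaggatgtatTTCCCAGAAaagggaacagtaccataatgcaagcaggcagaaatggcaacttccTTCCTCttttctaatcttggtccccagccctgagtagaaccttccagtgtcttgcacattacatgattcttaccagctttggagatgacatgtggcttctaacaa
Fcgr4 (chr1:171018676-171018975, plus strand): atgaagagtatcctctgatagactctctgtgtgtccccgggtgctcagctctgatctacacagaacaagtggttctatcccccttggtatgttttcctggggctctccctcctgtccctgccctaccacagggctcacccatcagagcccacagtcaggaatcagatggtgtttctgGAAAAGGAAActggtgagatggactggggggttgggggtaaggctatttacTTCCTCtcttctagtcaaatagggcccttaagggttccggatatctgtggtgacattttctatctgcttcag
Fcgr2b (chr1:170976022-170976321, minus strand): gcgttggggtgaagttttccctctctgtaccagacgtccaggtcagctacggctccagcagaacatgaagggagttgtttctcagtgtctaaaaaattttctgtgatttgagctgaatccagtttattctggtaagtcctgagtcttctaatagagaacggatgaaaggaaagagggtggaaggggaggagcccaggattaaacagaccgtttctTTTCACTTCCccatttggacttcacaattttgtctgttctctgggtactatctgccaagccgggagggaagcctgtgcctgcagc

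The Fcgr1 window held TTCNNNGAA as TTCCCAGAA at bases 142 to 150, counted from the 5′ end of the window, and the PU.1 core on the opposite strand at bases 196 to 201. In 32851 windows of the same length over all genes, some of which overlap, TTCNNNGAA was found in 8.30% and the PU.1 core in 28.3%. The Fcgr4 window held the interferon response core at bases 178 to 187 and the PU.1 core on the opposite strand at bases 229 to 234. The interferon response core was found in 3.44% of all windows. The Fcgr2b window held the PU.1-IRF composite on the opposite strand at bases 216 to 225, which was found in 2.72% of all windows. Both annotated Fcgr3 windows, which overlap, held the PU.1 core alone, and the Fcer1g window held no match to any of the 5 motifs. The wider STAT site was found in 6.95% of all windows and in none of those of the 5 genes. No motif of the search overlapped another in these windows. A match describes the letters only and is not a bound site.

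In wild-type macrophages IL-4 went with a loss of signal of the receptors that was uneven among them: Fcgr4 and Fcgr1 fell, Fcgr2b and Fcgr3 were lower by less than the rule of size, and the shared chain Fcer1g was lower by 0.29. Of the 5 genes, 2 fell and 0 rose, beside 6.78% of the 10282 genes that could pass the rule falling and 2.96% rising, 9.74% in all. Over all genes 304 rose and 697 fell, and with a second quantile normalization 403 rose and 488 fell, with the same 2 of the 5 genes falling. The median difference of the 5 genes was -0.61 and that of all 10282 genes -0.11. In bulk RNA, a smaller share of cells that carry a receptor and less of its RNA per cell cannot be told apart.

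**Figure D1:**
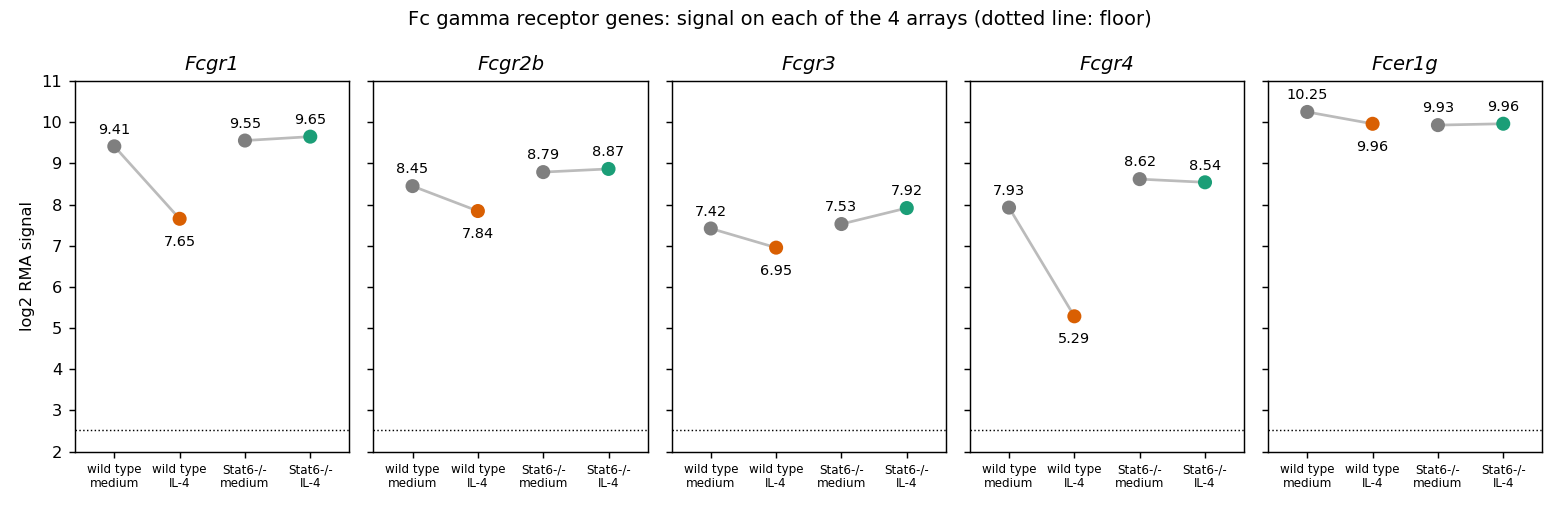
Log2 RMA signal (vertical axis) of each of the 5 genes on the 4 arrays, 1 point per array with its value, grey lines joining medium to IL-4 within a genotype and a dotted line at the floor of 2.52. The wild-type array with IL-4 is the lowest for the 4 receptors, at 5.29 for Fcgr4, while the 4 values of Fcer1g lie between 9.93 and 10.25.

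Fcgr4, an activating receptor of intermediate affinity that binds IgG2a and IgG2b, had signals of 7.93 (medium) and 5.29 (IL-4) on the wild-type arrays and of 8.62 (medium) and 8.54 (IL-4) on the Stat6-/- arrays. The wild-type array with IL-4 was thus far below the other 3, with a gap of 2.64 to the next. It fell by 2.64, or 6.24-fold, in wild type, which was the 24th lowest difference of 10282 genes. In Stat6-/- cells the difference between IL-4 and medium was -0.08.

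Fcgr1, the high-affinity receptor that can hold IgG in monomeric form, had signals of 9.41 and 7.65 in wild type in medium and with IL-4. In Stat6-/- the signals were 9.55 in medium and 9.65 with IL-4. Again the wild-type array with IL-4 stood alone at the low end, and the gaps between the other 3 were 0.14 and 0.09. Fcgr1 fell by 1.76 in wild type, or 3.39-fold, the 135th lowest difference, against a difference of 0.09 in Stat6-/- cells.

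Fcgr3, the activating low-affinity receptor, had signals of 7.42 (medium) and 6.95 (IL-4) on the wild-type arrays and of 7.53 (medium) and 7.92 (IL-4) on the Stat6-/- arrays. As for Fcgr1 and Fcgr2b, the arrays with IL-4 formed both ends of the range, the wild-type one the lowest and the Stat6-/- one the highest. The differences between IL-4 and medium were -0.46 in wild type and 0.39 in Stat6-/-, and neither passed the rule. In Stat6-/- cells, 92.1% of 10410 genes had a lower difference than Fcgr3.

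Fcgr2b, the inhibitory receptor, had signals of 8.45 and 7.84 in wild type in medium and with IL-4, and of 8.79 (medium) and 8.87 (IL-4) on the Stat6-/- arrays. Its order over the arrays was that of Fcgr1 and Fcgr3. The difference between IL-4 and medium was -0.61 in wild type and 0.08 in Stat6-/-. Fcgr2b and Fcgr3 have extracellular parts of closely similar sequence, so their probesets may in part read each other's transcripts, and the likeness of both profiles is uncertain for that reason.

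Fcer1g, the ITAM chain, had signals of 10.25 (medium) and 9.96 (IL-4) on the wild-type arrays and of 9.93 (medium) and 9.96 (IL-4) on the Stat6-/- arrays. Its highest array was wild type in medium and the other 3 lay within 0.03 of each other. The differences between IL-4 and medium were -0.29 in wild type and 0.03 in Stat6-/-. Its whole range over the 4 arrays was 0.32, against 3.33 for Fcgr4, 2.0 for Fcgr1, 1.02 for Fcgr2b and 0.96 for Fcgr3.

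Differences of the activating receptors were next set against that of the inhibitory receptor. In wild type with IL-4, the log2 difference of Fcgr4 was 2.04 below that of Fcgr2b, and the one of Fcgr1 was 1.15 below it. The difference of Fcgr3 was 0.14 above that of Fcgr2b, and the one of Fcer1g 0.32 above it. Fcgr4 and Fcgr1 thus lost signal relative to the inhibitory receptor by more than the rule of size, and Fcgr3 did not. In Stat6-/- cells the same quantity was 0.02 for Fcgr1, 0.31 for Fcgr3, -0.15 for Fcgr4 and -0.04 for Fcer1g. The values of Fcgr3 against Fcgr2b are uncertain, since both probesets may in part read each other's transcripts. The same doubt about the Fcgr2b signal enters the values of Fcgr4, Fcgr1 and Fcer1g against it.

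**Figure D2:**
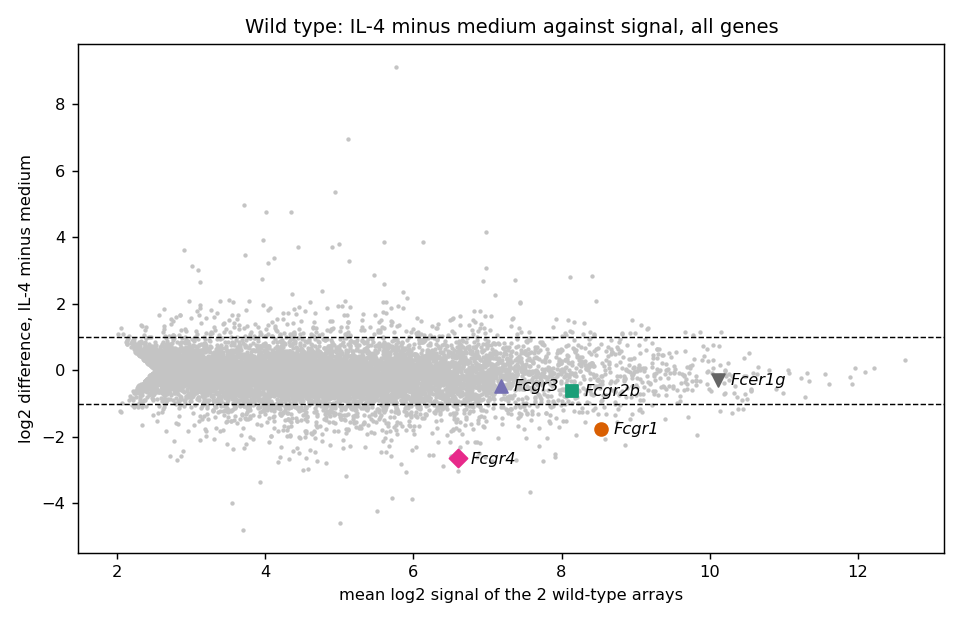
Log2 difference between IL-4 and medium in wild type (vertical axis) against the mean log2 signal of both wild-type arrays (horizontal axis), with 1 grey point for each of 10282 genes, the 5 genes in colour and dashed lines at a difference of 1 either way. Fcgr4 at -2.64 and Fcgr1 at -1.76 lie below the lower line, and Fcgr2b, Fcgr3 and Fcer1g lie inside both lines.

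In Stat6-/- cells none of the 5 genes passed the rule with IL-4, beside 0.24% of 10410 genes that rose and 0.115% that fell there, 0.355% in all. The 5 differences ran from -0.08 for Fcgr4 to 0.39 for Fcgr3, with a median of 0.08 beside -0.05 over all genes. All 5 lay inside the middle 95% of genes in that comparison, which reached from -0.60 to 0.61. In wild type that range reached from -1.42 to 1.08, and Fcgr4 and Fcgr1 lay below it.

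Subtracting the IL-4 difference in Stat6-/- from the one in wild type gave -2.56 for Fcgr4 and -1.85 for Fcgr1. These 2 of 5 passed the rule on the lower side, beside 5.77% of 10798 genes, and 0 passed on the higher side, beside 3.2%, with 8.97% passing on either side. Fcgr4 had the 21st lowest value of all genes and Fcgr1 the 88th lowest. The value was -0.85 for Fcgr3, -0.68 for Fcgr2b and -0.32 for Fcer1g, all in the same direction but under the rule.

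The genotypes were then compared within each culture. In medium, 0 of 5 genes passed the rule, beside 0.301% of 10299 genes that were higher and 1.15% that were lower in Stat6-/-, 1.45% in all. Fcgr4 came nearest at 0.69 higher in Stat6-/-, which exceeded the difference of 98.5% of genes and the upper end of the middle 95%, 0.61. Fcgr2b was 0.34 higher, Fcgr1 0.14 higher and Fcgr3 0.11 higher in Stat6-/-, and Fcer1g was 0.32 lower.

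With IL-4, 3 of 5 genes were higher in Stat6-/- than in wild type by the rule, beside 4.01% of 10433 genes, and 0 were lower, beside 4.83%, with 8.84% passing either way. Fcgr4 was 3.25 higher, or 9.54-fold, the 7th highest difference of all genes. Fcgr1 was 2.0 higher, or 3.99-fold, the 73rd highest. Fcgr2b was 1.02 higher, just past the rule, and 0.97 with the arrays shifted to a common median, where 2 of 5 genes passed. Fcgr3 was 0.96 higher, just short of it, and Fcer1g differed by 0.00145. This comparison shares the wild-type array with IL-4 with the IL-4 comparison in wild type, and the low signals of that array enter both.

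**Figure D3:**
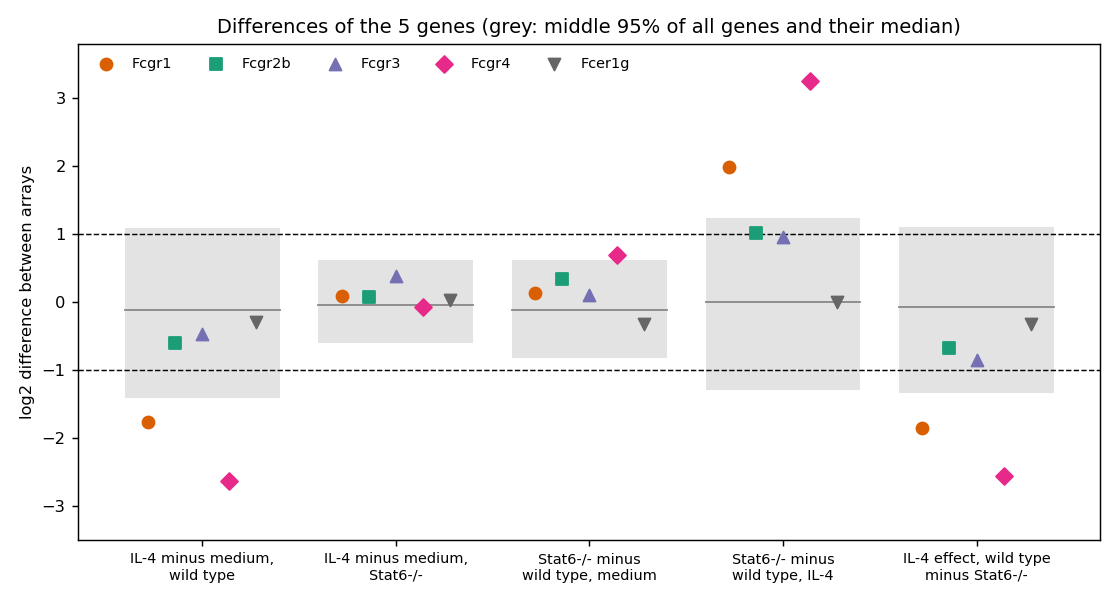
Log2 differences (vertical axis) of the 5 genes in the 5 comparisons, with grey boxes for the middle 95% of all genes that could pass the rule, a grey line at their median and dashed lines at the rule of size of 1. Fcgr4 and Fcgr1 leave the grey box in every comparison that holds the wild-type array with IL-4, Fcgr4 leaves it by a little in medium (0.69), and Fcer1g stays inside it throughout.

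The chromosome 1 genes were set in their neighbourhood. From Fcrla to Fcer1g in the RefSeq order, 11 protein-coding genes had a probeset with a single symbol, and 7 of these are not among the 5 genes described here. Of those 7, 3 reached the floor on any array. Pcp4l1, named after its values were seen, had signals of 4.39 and 3.10 in wild type in medium and with IL-4, and of 4.26 and 4.22 in Stat6-/-. It fell by 1.30 in wild type and was 1.12 higher in Stat6-/- with IL-4. The mitochondrial genes Sdhc and Tomm40l changed in no comparison, with differences of 0.52 and -0.31 in wild type. The order of genes from Fcgr2b is Fcgr4, then Fcgr3, so the gene with the largest fall lies between 2 that did not pass the rule in wild type with IL-4.

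The genes whose profiles over the 4 arrays lay nearest to each of the 5 were found by Euclidean distance between log2 signals centred on each gene's mean, among 10797 other genes at the floor on any array. For Fcgr4 they were Gbp7, an interferon-induced guanylate-binding protein, at 0.37, the kinesin gene Kif3a at 0.41 and Klhl6 at 0.42. Gbp7 had signals of 6.85 (medium) and 4.41 (IL-4) on the wild-type arrays and of 7.34 (medium) and 7.18 (IL-4) on the Stat6-/- arrays. For Fcgr1 they were Arhgap15 at 0.07, the interferon-inducible Ifi214 at 0.15 and Parp8 at 0.17. Ifi214 was under the floor on the wild-type array with IL-4, so its distance is not well measured. For Fcgr2b they were Slc37a1 at 0.04, Adam33 at 0.11 and Zfp358 at 0.12, and for Fcgr3 the translation factor gene Eif3m at 0.04, Slpi at 0.09 and Use1 at 0.11. For Fcer1g they were Baz2b at 0.02, Pitrm1 at 0.03 and Ero1a at 0.03. Among the 5 genes themselves, Fcgr2b and Fcgr3 were nearest to each other at 0.28, and Fcgr4 and Fcer1g farthest apart at 2.71. With 4 arrays, such distances describe these arrays only.

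Genes that act with the Fc gamma receptors were taken from 9 lists with 134 entries, of which 121 were matched to a gene on the array. In wild type with IL-4, 8 of 106 list entries that could pass the rule rose (7.55%, beside 2.96% of all genes) and 13 fell (12.3%, beside 6.78%). In Stat6-/- cells 0 of 103 rose, beside 0.24% of all genes, and 1 fell, beside 0.115%. Between the genotypes with IL-4, 9 of 104 entries were higher in Stat6-/- (8.65%, beside 4.01% of all genes) and 16 were lower (15.4%, beside 4.83%). In medium, 0 of 104 were higher, beside 0.301%, and 4 were lower (3.85%, beside 1.15%). In wild type the list entries that rose and fell numbered 11 and 11 after a second quantile normalization, and 11 and 10 without the intensity trend, so the larger number of falls depends on the scaling. The lists were chosen with earlier results of these data known, and the shares describe them without a test. Counts of single lists below stand beside the shares of all genes and are not read as results about a list.

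Tyrobp, the other ITAM chain of macrophages, had signals of 9.17 and 9.26 in wild type in medium and with IL-4, and of 9.02 and 9.26 in Stat6-/-. The list of other receptors that pair with Fcer1g, which may not hold all of them, had 5 that could pass the rule. Of these 5, 3 fell and 1 rose in wild type, with a median of -1.52, beside 6.78% of all genes that fell and 2.96% that rose. The C-type lectins Clec4e (-1.77), Clec4d (-1.56) and Clec4n (-1.52), which sense microbial glycolipids and glycans, fell. Clec4b1 went from 2.0, under the floor, to 3.59, a rise of at least 2.10-fold. In Stat6-/- their differences with IL-4 were 0.28 for Clec4e, -0.11 for Clec4d and -0.13 for Clec4n on the log2 scale, and Clec4b1 was under the floor on both arrays.

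With IL-4, Clec4e (1.06), Clec4d (1.08), Clec4n (1.19) and Lilra6 (1.05) were higher in Stat6-/- than in wild type, and Clec4b1, under the floor in Stat6-/-, was lower by at least 2.10-fold. The list headed by Tyrobp had 8 genes that could pass the rule in wild type with IL-4. Which of them pair with Tyrobp and which with Fcer1g was not tested. Of the 8, Cd300ld (1.53) rose in wild type, and Pilrb1 (-1.02) and Pilrb2 fell. Beside this, 2.96% of all genes rose there and 6.78% fell. Pilrb2 had signals of 2.93 in medium and 1.86 with IL-4 there. As 1.86 lies below the floor, its drop is given as at least 1.32-fold. Pilrb1 also fell by 1.02 in Stat6-/- cells, the 1 gene of the 9 lists to do so. In wild type Pilrb1 missed the rule without the intensity trend (-0.87) and after a second quantile normalization (-0.83). Clec5a was lower in Stat6-/- in medium (-1.35) and with IL-4 (-1.94), as was Cd300ld with IL-4 (-2.15). The median of this list was 0.05 in wild type with IL-4.

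Downstream of the ITAM, 1 of 27 kinases and adaptors rose in wild type with IL-4 and 1 fell, with a median of -0.24. These counts stand beside 2.96% of all genes that rose and 6.78% that fell. Syk, the kinase that docks on the phosphorylated ITAM, had signals of 7.15 and 6.15 in wild type and of 6.86 and 6.74 in Stat6-/- in medium and with IL-4, a difference of -0.99 in wild type that lies just under the rule. Prkcd, a protein kinase C, rose by 1.12 and Pik3r1, a regulatory subunit of PI3-kinase, fell by 1.33. With IL-4, the Src-family kinases Fgr (-1.50) and Src (-1.42), the adaptor Lat2 (-1.05) and Prkcd (-1.43) were lower in Stat6-/- than in wild type. These were 4 of 26, beside 4.83% of all genes, and 0 of 26 were higher, beside 4.01%.

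Of the inhibitory side, Inpp5d, the phosphatase that Fcgr2b recruits, had signals of 7.82 and 7.30 in wild type and of 7.83 and 7.68 in Stat6-/-, with a difference of -0.52 in wild type. Of 11 inhibitory phosphatases and adaptors, the adaptor Dok2 (1.18) and the phosphatase Ubash3b (1.18) rose in wild type and the adaptor Dok3 (-1.76) fell, with a median of -0.36. Ubash3b was lower in Stat6-/- in medium (-1.33) and with IL-4 (-2.19), Dok2 was lower with IL-4 (-1.24) and Dok3 higher (1.53). Of 14 ITIM receptors, which share the kind of motif that Fcgr2b uses, Siglece (-2.76), Cd300a (-1.75) and Pecam1 (-1.52) fell in wild type and Lair1 (1.10) rose, with a median of -0.48. For this list and the one before, the shares of all genes in wild type with IL-4 were 2.96% rising and 6.78% falling. Siglece was also lower in Stat6-/- in medium (-2.04). With IL-4, Cd300a (1.51) and Cd300lf (1.72) were higher and Lair1 (-1.24) and Cd72 (-1.03) lower in Stat6-/-.

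**Figure D4:**
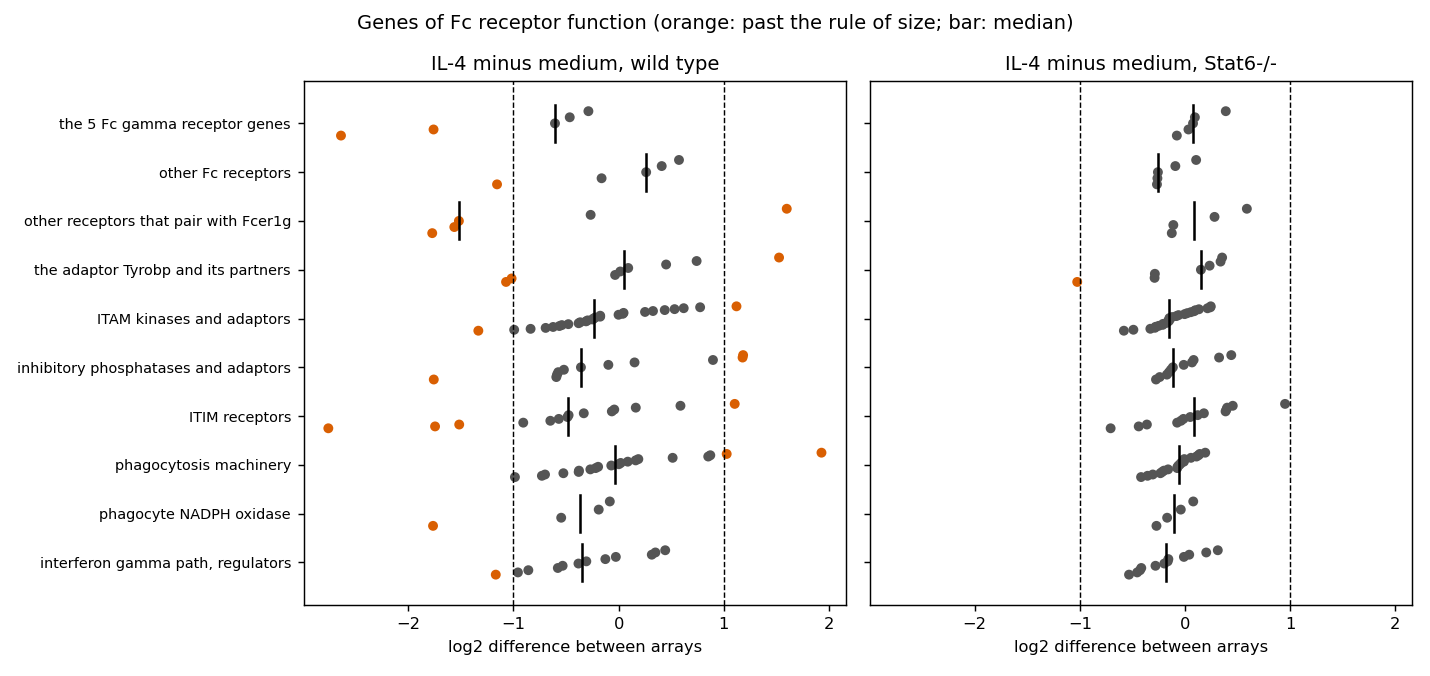
Log2 difference between IL-4 and medium (horizontal axis) in wild type (left) and Stat6-/- (right) for the 5 genes and 9 lists of genes of Fc receptor function (rows), 1 point per gene that could pass the rule, with black bars at the median, dashed lines at the rule of size and orange points past it. The 5 genes lie below 0 in wild type, with a median of -0.61, and between -0.08 and 0.39 in Stat6-/-.

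The lists of phagocytosis and of the oxidative burst had 3 genes past the rule in wild type with IL-4, beside 9.74% of all genes. Of 20 actin and membrane genes, Pla2g4a (1.93), a phospholipase that releases arachidonic acid, and Myo1g (1.03), a myosin, rose in wild type with IL-4 and 0 fell, with a median of -0.03. With IL-4, Pla2g4a (-2.28), Myo1g (-1.23), Pip5k1c (-1.21) and Limk1 (-1.12) were lower in Stat6-/-, and in medium Myo10 was (-1.21). Of 4 NADPH oxidase genes, the cytosolic subunit Ncf1 fell by 1.77 in wild type and was 1.51 higher in Stat6-/- with IL-4, and the list median was -0.37 in wild type.

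Of 15 entries of the list of other Fc receptors, 14 were matched, and 5 could pass the rule. Trim21, the cytosolic receptor of antibody, fell by 1.16 in wild type, and 0 of 5 rose, with a median of 0.26. Of all genes, 6.78% fell in wild type with IL-4 and 2.96% rose. Trim21 was under the rule without the intensity trend (-0.93) and after a second quantile normalization (-0.98). The IgE receptor chains Fcer1a and Ms4a2 lay under the floor on all 4 arrays. Fcgrt, the neonatal Fc receptor, was not matched to a single-symbol probeset and is not analysed here. Of 12 genes of the interferon gamma path and of known regulators of Fc receptor genes, Irf8, a transcription factor that works with PU.1, fell by 1.17 in wild type (-0.97 without the intensity trend, under the rule) and 0 rose, with a median of -0.34. The same shares of all genes stand beside these counts. Irf8 had signals of 7.17 and 6.0 in wild type and of 7.66 and 7.20 in Stat6-/-, medium before IL-4. With IL-4 it was 1.20 higher in Stat6-/-, while the kinase gene Jak2 was lower (-1.34). Spi1, the gene of PU.1, differed by 0.35 in wild type.

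Fc gamma receptors are also made by other cells of the marrow, so marker lists were read beside them. Of 9 macrophage markers on the array, 8 lay above the floor on each array and Cd163 on none. The summed linear signal of the 9 was 10286 (medium) and 6973 (IL-4) on the wild-type arrays and 9026 (medium) and 8987 (IL-4) on the Stat6-/- arrays. The wild-type array with IL-4 was thus the lowest for this sum, as for the receptors, and the part of this in the receptor differences was not tested. Adgre1, whose protein was used for the sort, fell by 1.21 in wild type. Mertk, a receptor for the uptake of dying cells, fell by 1.36, and Cd14, a co-receptor for bacterial lipopolysaccharide, fell by 2.74, from 9.11 to 6.38.

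Of 7 B cell markers, which would come with Fcgr2b, Cd79b alone reached the floor, and Ms4a1, Cd79a and Pax5 were under it on all 4 arrays. The summed signal of that list ran from 26.4 to 29.5 over the 4 arrays. Of 7 NK cell markers, Prf1 alone reached the floor, on both arrays with IL-4, and Ncr1, Klrb1c and Gzma were under it throughout, with sums from 19.9 to 23.1. Of 10 neutrophil markers, Ngp and S100a9 reached the floor, both on arrays in medium only, so that Ngp fell in wild type from 2.79 to under the floor, at least 1.21-fold, and Ly6g, S100a8, Mpo and Elane did not, with sums from 37.0 to 43.0. Of 8 mast cell and basophil markers, Gata2 and Tpsb2 reached it on the Stat6-/- array with IL-4 and the others on none, with sums from 24.97 to 29.5.

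Of 6 dendritic cell markers, Flt3, Xcr1, Clec9a and Ccr7 were under the floor on all arrays, and Zbtb46 lay between 2.42 and 2.92. Itgax, which macrophages also express, had signals of 6.99 and 9.83 in wild type in medium and with IL-4, and of 3.49 and 4.27 in Stat6-/-, and sums of the list ran from 30.6 to 930. Of 4 monocyte markers on the array, Ccr2 and Nr4a1 lay above the floor, and Ccr2 was 0.78 higher in Stat6-/- in medium and 0.99 higher with IL-4, in the direction of Fcgr4, with list sums from 68.9 to 135. Of 5 T cell markers Cd3e and Il7r reached the floor (sums from 132 to 263), and of 4 eosinophil markers Ccr3 and Siglecf did (22.2 to 32.5). Of 3 megakaryocyte and platelet markers Pf4 did (233 to 710), and of 5 fibroblast markers Col1a1, Col1a2 and Col3a1 did (28.4 to 31.8). Several of these sums rest largely on the brightest gene. They ran from 18.0 to 20.3 without Itgax, 13.9 to 17.5 without Il7r and 7.58 to 7.95 without Pf4. The monocyte sums ran from 23.6 to 33.6 without Ccr2, and the eosinophil sums from 12.7 to 13.8 without Ccr3. The part of Ccr2, Itgax, Il7r, Ccr3 and Pf4, whose signals differed between the genotypes in medium, in the receptor differences was not tested.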

How the data were processed

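The values were deposited by the authors as log2 signals, 1 per probeset and array, made with RMA in Affymetrix Expression Console per the submitters' processing notes. RMA corrects background, normalizes arrays by quantiles and summarises probes, and it understates fold changes of dim genes. Versions, settings and the genome build of the array were not given in the sources used here, and the log base was read from the range of the values. Of 35557 probesets, 21789 had 1 symbol, and each of 19938 genes was represented by the probeset with the highest mean over the 4 arrays. Names came from the platform annotation, checked against RefSeq by Entrez identifier.

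The 4 groups hold 1 array each, so differences were computed with Python 3.11.15 and pandas 2.3.3 and no test was run. Precision is limited by there being 4 arrays. The floor is 2.52 and the rule of size 1 on the log2 scale. The code for the calls was run on simulated data with set shifts larger than the rule. That run checks the code alone and says nothing about replicate spread or the calls made here. The members and lists were chosen with earlier results of these data known. Named are the 5 members, Stat6, Tyrobp, Syk, Inpp5d, list genes past the rule (at most 4 per list and comparison, with Lilra6 added after its value was seen to complete a count) and the 3 nearest profiles per member. Some macrophage and other marker genes are named after their values were seen. Alternatives were a second quantile normalization, a common array median, removal of a lowess trend (fraction 0.3), the mean of all probesets, no floor, a floor at the 75th percentile and signals raised to the floor.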

Additional observations from a re-analysis of the deposited data

Results flagged for a closer look

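For 4 of the 5 genes the difference between IL-4 and medium had opposite signs in the genotypes, lower in wild type and higher in Stat6-/-. With 1 array a group, this difference between the genotypes was not tested. The wild-type effect minus the Stat6-/- effect was -1.85 for Fcgr1, -0.68 for Fcgr2b, -0.85 for Fcgr3 and -0.32 for Fcer1g. In Stat6-/- cells the 4 differences were small, from 0.03 for Fcer1g to 0.39 for Fcgr3, and lay inside the middle 95% of all genes. The count of 4 depends on the scaling, since Fcer1g in Stat6-/- was at 0 after a second quantile normalization. Fcgr4 there was at 0.008 without the intensity trend, against -0.08 in the values as deposited.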

How the results depend on the processing

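Of 259 recomputed values of the 5 genes, their counts and the list totals under 7 alternatives, 258 kept their call or stayed within 1.5 times of the count. The exception was the higher signal of Fcgr2b in Stat6-/- with IL-4, which was 0.97 with the arrays shifted to a common median. The count of the 5 genes higher there went from 3 to 2 under that setting. It lies at the limit of 1.5 times and is held among the 258. Each of the 5 genes has 1 probeset and lay above both floors on every array, the higher floor being 4.65. The mean of all probesets and the changes of the floor could therefore not alter their values or calls, so agreement there was fixed in advance. Over the alternatives, the IL-4 difference in wild type ran from -2.64 to -2.45 for Fcgr4, from -1.78 to -1.56 for Fcgr1, from -0.64 to -0.42 for Fcgr2b, from -0.47 to -0.28 for Fcgr3 and from -0.29 to -0.07 for Fcer1g. Uncalled differences near 0 changed sign for Fcgr4 in Stat6-/- with IL-4 (-0.13 to 0.01) and for Fcer1g between the genotypes with IL-4 (-0.10 to 0.05). The one of Fcer1g in Stat6-/- with IL-4 ran from 0 to 0.07.

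A second quantile normalization moved the median of all genes in the wild-type IL-4 comparison from -0.11 to 0.02. Relative to these medians Fcgr4 differed by -2.53 in the values as deposited, and by -2.66 to -2.44 over the alternatives, and Fcgr1 by -1.65, and by -1.80 to -1.56. The genes that rose and fell in that comparison numbered 304 and 697, and 403 and 488 after it, or 418 and 474 without the intensity trend. Between the IL-4 effects of the genotypes, 346 higher and 623 lower genes became 420 and 461, or 408 and 472. In medium, 31 were higher and 118 lower in Stat6-/-, and 42 and 71 after the second normalization, 37 and 81 without the trend, and 25 and 158 with the arrays shifted to one median. With the floor at the 75th percentile 14 were higher in medium, 13 rose and 7 fell in Stat6-/- with IL-4 where 25 and 12 had, and 199 were higher in the difference of effects. Among list genes, Irf8 was at -0.97 in wild type without the trend and Trim21 at -0.93. Pilrb1 was at -0.87 there, and Limk1, Pip5k1c and Cblb passed the rule at 1.07, 1.08 and 1.11. After the second quantile normalization Trim21 (-0.98) and Pilrb1 (-0.83) were also under the rule. Limk1 (1.01), Pip5k1c (1.01) and Cblb (1.05) passed it there as well. No paired analysis was possible because each group holds 1 array.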
